A study of Mus musculus with 9 samples.

Results

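The 39 genes described here mark endothelial cells or act in blood vessel growth. They were chosen by name, for what they are known to do. They are 17 genes mainly of the endothelial surface and junctions, 4 endothelial transcription factors, and 5 receptors and 4 ligands of the vascular endothelial growth factor (VEGF) family. The others are 4 angiopoietin and Tie genes, the apelin pair, and 3 genes of tip cells and Notch signaling. The group of 17 also holds the enzyme Nos3 and the secreted proteins Vwf, Egfl7 and Mmrn2. All 39 were among the 54347 genes of the deposited table and among the 15532 genes tested. RNA was sequenced from pancreatic neuroendocrine tumors of INS-p25OE mice and from normal islets, with 1 library per sample. INS-p25OE animals carry the Ins2-rtTA and tetOp-p25GFP transgenes on a C57BL/6 background. Doxycycline in the drinking water, given from weaning, switches on p25, an aberrant activator of the kinase Cdk5, in the insulin-producing beta cells. The study also saw a low level of the transgene without doxycycline. The labels give 3 tumors as Tumor Inulin (M1 to M3) and 3 as Tumor (M4 to M6). The study calls the former functional and the latter non-functional, and the meaning of the word Inulin is not stated in the sources used here. The other 3 libraries (NI1 to NI3) are labelled beta islets of C57BL/6 mice. M2 came from a female and the other 8 libraries from males.

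Islets are among the most densely vascularized tissues of the body. Beta cells secrete Vegfa, which acts through Kdr (VEGF receptor 2) on nearby capillaries and keeps their lining thin and fenestrated. Angiopoietins act on the receptor Tek, apelin acts on its receptor Aplnr, and Dll4 and Notch4 balance leading tip cells against the stalk cells behind them. In whole tumors or whole islets, transcripts made mainly by endothelial cells come from a minority of the cells. For these transcripts, fewer endothelial cells cannot be told apart from less RNA per endothelial cell. Not every gene described here is of this kind, since Vegfa is secreted by the beta cells.

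Levels are given as CPM, the counts of a gene relative to the TMM-scaled total of its library. Totals ran from 36468280 to 63637175 counts per library, so that 3 counts corresponded to between 0.0425 and 0.119 CPM. Mitochondrial genes held 32.1% of the counts of M4 and between 1.76% and 8.41% in the other libraries. The library labelled NI1 stood apart from the other islets. Its log2(CPM + 1) values over the 15532 genes correlated with those of tumor M6 at a Pearson r of 0.988, against 0.932 with NI2 and 0.920 with NI3, while NI2 and NI3 correlated at 0.975. Cdk5r1, the gene from which p25 derives, was at 280 CPM in NI1, between 149 and 401 CPM in the tumors, and at 18.4 and 12.5 CPM in NI2 and NI3. Of the 39 genes, 36 were within 1.5-fold of M6 in NI1 (91.8% of all genes tested were), the exceptions being Vwf, Sox17 and Angpt1. For those of the 39 described one by one, any fold change of all tumors over the islets is therefore given with and without NI1.

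The promoters of Kdr, Flt1 and Apln are shown because these are a pair of receptors that were lower in each tumor than in each islet library and the single gene of the 39 called in the edgeR fit of all tumors against islets without NI1. The sequences are the 250 bases before the transcription start from RefSeq on GRCm38.p6, 5′ to 3′ on the minus strand that carries each gene. Capitals mark GGAA or its reverse complement TTCC, the core that ETS factors such as Erg and Fli1 bind. The positions are chr5:75978456-75978705 for Kdr, chr5:147726012-147726261 for Flt1 and chrX:48034854-48035103 for Apln.
Kdr: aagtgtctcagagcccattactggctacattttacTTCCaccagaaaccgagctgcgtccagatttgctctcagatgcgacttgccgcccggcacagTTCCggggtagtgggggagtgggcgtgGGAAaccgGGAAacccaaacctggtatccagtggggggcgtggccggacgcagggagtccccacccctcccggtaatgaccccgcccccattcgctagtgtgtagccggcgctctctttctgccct
Flt1: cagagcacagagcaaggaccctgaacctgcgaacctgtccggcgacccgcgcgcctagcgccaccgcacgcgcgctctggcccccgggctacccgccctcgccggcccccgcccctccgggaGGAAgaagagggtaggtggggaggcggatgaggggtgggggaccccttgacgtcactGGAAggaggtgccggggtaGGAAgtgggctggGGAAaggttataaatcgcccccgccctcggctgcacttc
Apln: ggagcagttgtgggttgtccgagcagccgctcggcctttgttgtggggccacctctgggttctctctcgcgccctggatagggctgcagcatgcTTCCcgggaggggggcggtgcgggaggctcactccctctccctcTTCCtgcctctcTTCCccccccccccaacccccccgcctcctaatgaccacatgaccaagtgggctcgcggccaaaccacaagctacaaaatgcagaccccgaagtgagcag
The core occurred 4 times in the Kdr window, 4 times in that of Flt1 and 3 times in that of Apln. These letters are common. They were in 93.4% of the 32851 promoter windows of the same length and in 25 of 29 windows that belong to 23 of the 39 genes. The hypoxia response core, ACGTG or GCGTG on either strand, had 2 matches before Kdr, 1 before Flt1 and 0 before Apln, and was in 38.6% of all windows and in 13 of the 29.

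To determine whether the endothelial genes as a group differed between tumors and islets, all 6 tumors were compared with the 3 islet libraries. Of the 39 genes, 0 passed an adjusted p of 0.05 in the quasi-likelihood test of edgeR, where 0.258% of all genes tested passed (40 genes). At an unadjusted p under 0.05, 3 of the 39 were higher (Apln, Nrp2 and Angpt2) and 2 were lower (Pgf and Kdr), against 19.8% of all genes in either direction. DESeq2 called Apln higher and Pgf lower, where it called 7.16% of the genes to which it gave an adjusted p, and limma called 0 of the 39 and 0.212% of all genes. The median log2 fold change was -0.04 over the 39 genes and 0.03 over all genes tested. Without NI1, 1 of the 39 genes was called, Apln, which was higher in the tumors, where 8.51% of all genes passed (1321 genes). Without NI1, DESeq2 called Apln and Nrp2 higher and Pgf lower (15.8% of genes) and limma called Apln higher and Pgf lower (10.8%). The median was then 0.08 over the 39 genes and 0.05 over all genes tested. The plot of fold changes with and without NI1 shows each gene beside its standard error, by role.

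**Figure D1:**
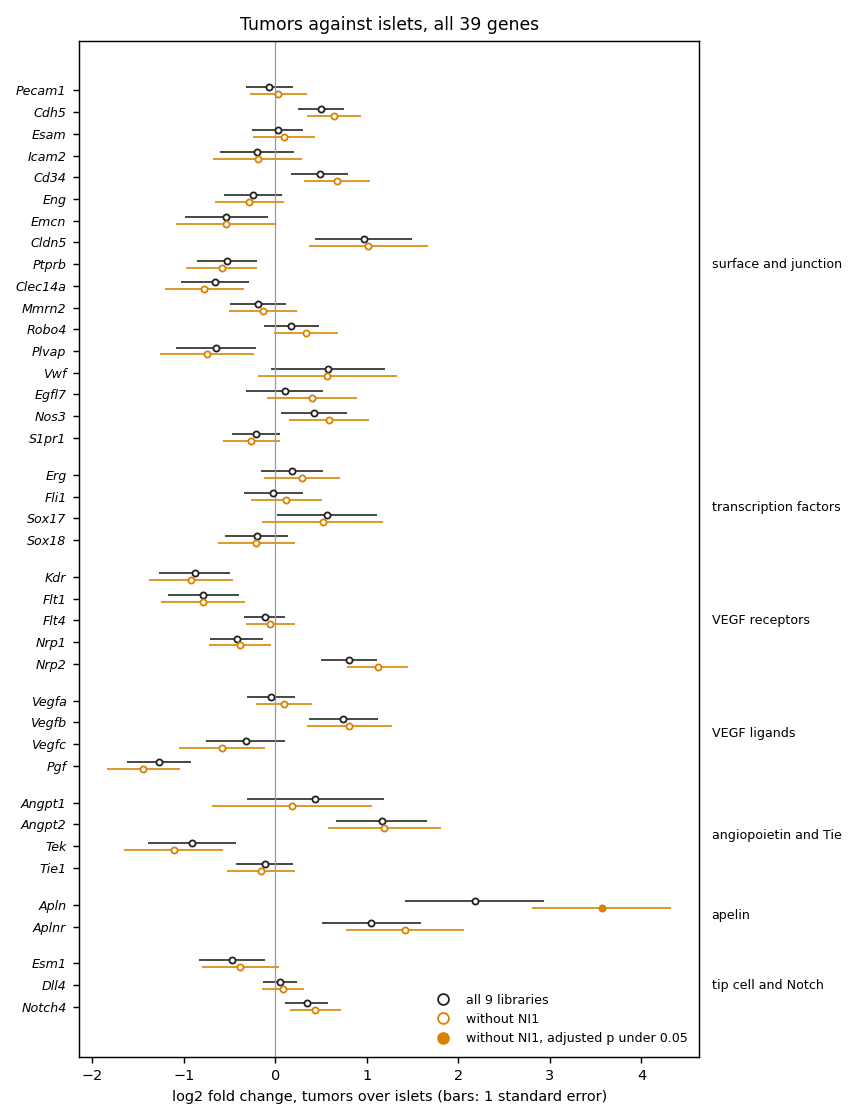
Log2 fold change of tumors over islets for all 39 genes (x axis) by role (y axis), with bars of 1 standard error, in the fit of all 9 libraries and in the fit without NI1. Apln without NI1 is the only filled point, an adjusted p under 0.05, while Pgf lies farthest to the left in both fits.

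Endothelial transcripts were present in every library. The 10 core endothelial genes (Pecam1, Cdh5, Tie1, Esam, Erg, Egfl7, Robo4, Mmrn2, Clec14a and Emcn) summed to 687, 317 and 408 CPM in M1 to M3, to 693, 878 and 601 CPM in M4 to M6, and to 681, 617 and 565 CPM in NI1 to NI3. The tumors therefore lay on both sides of the islets, with M2 and M3 below and M1, M4 and M5 above. Per kilobase of exon, Plvap, which forms the diaphragms of fenestrated capillaries, had the highest mean level of the 39 genes in both tissues, at 197 ± 29.0 CPM per kb in islets (SD, n = 3), 212 ± 21.8 in NI2 and NI3 alone (SD, n = 2) and 126 ± 66.9 in tumors (SD, n = 6). Esm1, which marks tip cells, followed in islets at 91.1 ± 9.81 CPM per kb (85.4 ± 1.68 without NI1) and was at 65.6 ± 27.2 in tumors. Vegfa was at 77.1 ± 12.3 CPM per kb in islets (70.1 ± 3.59 without NI1) and 74.7 ± 20.5 in tumors. These 3 led the order in both tissues, with or without NI1. In tumors the levels of Esm1 and Vegfa were closer to each other than their SDs. Vegfa is also made by the beta cells themselves. Angpt1, which stabilizes vessels, was lowest per kilobase in both, at 0.195 ± 0.0724 in islets (0.232 ± 0.0493 without NI1) and 0.266 ± 0.268 in tumors.

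Among the 17 genes of the surface and junction group, 8 had a fold change above 0 and 9 below it, and 0 were called with or without NI1. Pecam1 (CD31), an adhesion molecule of the endothelial junction, was at 146, 63.6 and 89.7 CPM in M1 to M3, at 141, 139 and 116 CPM in M4 to M6 and at 137, 116 and 110 CPM in the islets. Cdh5 (VE-cadherin), the cadherin of the same junction, was at 125, 59.8 and 93.9 CPM in M1 to M3, at 120, 104 and 75.7 CPM in M4 to M6 and at 81.4, 66.5 and 57.4 CPM in the islets. Pecam1 levels overlapped between the tissues, while Cdh5 was above every islet library in 4 of the 6 tumors. The log2 fold change of Cdh5 was 0.50 ± 0.25 (SE) and its adjusted p 0.298, and without NI1 they were 0.64 ± 0.29 and 0.201.

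Plvap ranged from 93.5 to 450 CPM in the tumors, with a median of 271, and was at 336, 451 and 390 CPM in NI1 to NI3. Of the 6 tumors, 5 lay below every islet library. Emcn (endomucin), a sialomucin of veins and capillaries, was between 28.6 and 146 CPM in tumors and within 106 to 107 CPM in the islets, so that the islets hardly varied while the tumors spread widely on both sides. Its 5 tumors below the islets included M2 and M3 at 29.5 and 28.6 CPM. The log2 fold changes of both genes were within 1.5 SE of 0 (-0.65 ± 0.44 for Plvap and -0.53 ± 0.46 for Emcn, and without NI1 -0.75 ± 0.51 and -0.54 ± 0.55). Cldn5 (claudin-5), a tight junction protein, was between 1.61 and 8.99 CPM in tumors and between 2.42 and 2.79 CPM in islets, with a log2 fold change of 0.97 ± 0.53 (1.02 ± 0.65 without NI1), and Vwf (von Willebrand factor) between 5.28 and 45.8 CPM in tumors and between 13.9 and 23.7 CPM in islets.

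Erg and Fli1 are ETS factors that keep endothelial identity, and Sox17 and Sox18 are SOX factors of arterial and early endothelium. None of the 4 was called with or without NI1 in the edgeR fits. Erg ranged from 7.47 to 25.6 CPM in the tumors and from 12.5 to 16.2 CPM in the islets. Fli1 was between 5.73 and 13.2 CPM in the tumors and between 7.73 and 11.0 CPM in the islets. Their log2 fold changes were 0.18 ± 0.34 and -0.02 ± 0.32 (SE), and 0.29 ± 0.41 and 0.12 ± 0.39 without NI1, and the tumors lay on both sides of the islets for each of the 4 genes.

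Kdr and Flt1 are the receptors for Vegfa. Kdr carries most of the growth signal, and Flt1 binds the ligand more tightly and limits its supply. Kdr (ENSMUSG00000062960, chr5:75932827-75978458 on mm10) was at 167, 48.2 and 65.2 CPM in M1 to M3, at 132, 145 and 198 CPM in M4 to M6 and at 220, 242 and 233 CPM in NI1 to NI3. Flt1 (ENSMUSG00000029648, chr5:147561604-147726011) was at 129, 46.6 and 57.1 CPM in M1 to M3, at 124, 190 and 151 CPM in M4 to M6 and at 201, 200 and 201 CPM in NI1 to NI3. All 6 tumors were below all 3 islet libraries for both receptors, with M2 and M3 lowest. The log2 fold change was -0.88 ± 0.39 (SE) for Kdr and -0.79 ± 0.39 for Flt1, with adjusted p values of 0.242 and 0.287. Without NI1 they were -0.92 ± 0.46 and -0.79 ± 0.46, with adjusted p values of 0.234 and 0.307. The groups therefore separated without passing the test.

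Nrp1 and Nrp2 (neuropilins) are co-receptors for VEGF and for semaphorins. Nrp1 (ENSMUSG00000025810, chr8:128358604-128503363) was at 67.0, 26.3 and 39.4 CPM in M1 to M3, at 67.0, 62.6 and 67.1 CPM in M4 to M6 and at 77.2, 70.4 and 73.2 CPM in the islets. It too was lower in each tumor than in each islet library. Its log2 fold change in edgeR was -0.42 ± 0.28 (adjusted p = 0.427), and -0.39 ± 0.34 without NI1 (adjusted p = 0.502). Nrp2 (ENSMUSG00000025969, chr1:62703285-62818695) had the opposite order, at 26.5, 14.0 and 26.2 CPM in M1 to M3, at 32.1, 27.8 and 18.4 CPM in M4 to M6, and at 19.2, 10.8 and 11.4 CPM in NI1 to NI3. All 6 tumors were above NI2 and NI3, and 4 were above NI1. The log2 fold change of Nrp2 was 0.80 ± 0.31 (SE) with an adjusted p of 0.201, and without NI1 1.12 ± 0.33 with an adjusted p of 0.0685. Over the alternatives of the fit without NI1 that adjusted p ran from 0.0214 to 0.366, and Nrp2 was called by DESeq2 and in the fit that also left out M2, in which 8.54% of all genes were called. Flt4, the receptor of lymphatic vessels, was between 15.0 and 31.0 CPM in tumors and between 24.5 and 29.1 CPM in islets.

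Of the 39 genes, 4 had all 6 tumors below all 3 islet libraries (Kdr, Flt1, Nrp1 and Pgf), against 3.17% of all genes tested, and 0 had all 6 tumors above, against 4.5%. Against NI2 and NI3 alone, 6 of the 39 had all tumors below (these 4, Clec14a and Tek), against 16.3% of all genes, and 2 had all tumors above (Nrp2 and Apln), against 16.6%. The share of the 39 genes was above the background for genes lower than all 3 islet libraries and near it for genes below NI2 and NI3. It was below the background in the counts of genes with all tumors above. The 39 genes vary together, so that they are not separate observations.

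**Figure D2:**
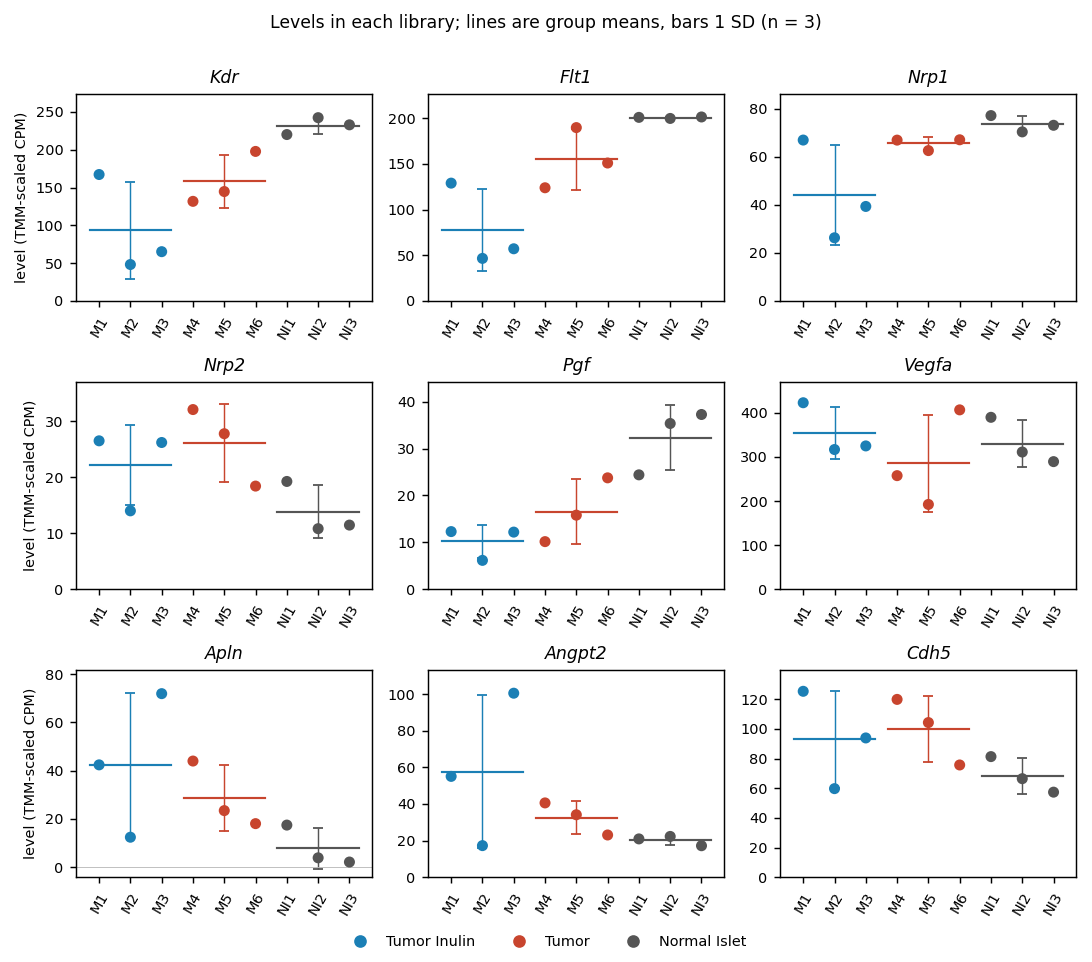
Level in TMM-scaled CPM (y axis, starting at or below 0) in each of the 9 libraries (x axis) for 9 genes, with points for libraries, lines for the means of Tumor Inulin, Tumor and Normal Islet, and bars of 1 SD (n = 3). Kdr, Flt1, Nrp1 and Pgf have every tumor below every islet library, and Apln has NI1 at 17.4 CPM beside NI2 and NI3 at 3.85 and 2.11 CPM.

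The 4 VEGF ligands differed from each other in direction. Vegfa, the main ligand of Kdr (ENSMUSG00000023951, chr17:46016993-46032369), was at 423, 317 and 325 CPM in M1 to M3, at 258, 192 and 407 CPM in M4 to M6 and at 390, 311 and 289 CPM in the islets. The tumors lay on both sides of the islets, and its log2 fold change was -0.04 ± 0.26 (SE) with all libraries and 0.09 ± 0.31 without NI1. Pgf (placental growth factor, ENSMUSG00000004791, chr12:85166635-85177790), a ligand of Flt1, was at 12.3, 6.14 and 12.2 CPM in M1 to M3, at 10.1, 15.8 and 23.8 CPM in M4 to M6 and at 24.4, 35.4 and 37.3 CPM in NI1 to NI3. Each tumor was below each islet library, although M6 and NI1 nearly touched. The log2 fold change was -1.27 ± 0.35 (SE) with an adjusted p of 0.152, and without NI1 -1.44 ± 0.40 with an adjusted p of 0.0545. Pgf was called lower by DESeq2 with and without NI1 (adjusted p = 0.0295 and 0.0184), by limma without NI1 (0.0464) and in the edgeR fits without M6 (0.0448), without NI1 and M6 (0.0183) and without NI1 and M2 (0.0449). These 3 edgeR fits called 1.4%, 9.34% and 8.54% of all genes. The adjusted p ran from 0.0183 to 0.582 over the alternatives with all libraries and from 0.0183 to 0.319 over those without NI1. Vegfb ranged from 23.6 to 78.3 CPM in tumors and from 25.2 to 32.4 CPM in islets. Vegfc, a ligand of Flt4, was between 2.38 and 6.71 CPM in tumors and between 2.71 and 5.45 CPM in islets.

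Angpt2, which loosens vessels and opposes Angpt1 at the receptor Tek, was at 55.1, 17.3 and 100 CPM in M1 to M3, at 40.6, 34.1 and 23.1 CPM in M4 to M6 and at 20.9, 22.3 and 17.2 CPM in the islets. In 5 of the 6 tumors it was above every islet library, and M3 had the highest level. Its log2 fold change was 1.16 ± 0.50 (SE) with an adjusted p of 0.238, and 1.19 ± 0.62 with an adjusted p of 0.251 without NI1. Tek was at 18.7, 8.51 and 3.73 CPM in M1 to M3, at 16.8, 25.2 and 13.2 CPM in M4 to M6 and at 18.8, 36.3 and 25.7 CPM in the islets. It was below every islet library in 5 tumors, M5 being the exception, with a log2 fold change of -0.91 ± 0.48 (adjusted p = 0.314) and of -1.11 ± 0.54 without NI1 (adjusted p = 0.224). Tie1, the partner receptor of Tek, ranged from 29.6 to 84.6 CPM in tumors and from 55.7 to 62.1 CPM in islets. Angpt1 stayed under 1.4 CPM in every library except M4, where it was 4.16 CPM.

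Apln encodes apelin, a peptide of angiogenic tip cells. Apln (ENSMUSG00000037010, chrX:48025146-48034853) was at 42.4, 12.4 and 72.0 CPM in M1 to M3, at 44.0, 23.4 and 18.0 CPM in M4 to M6, and at 17.4, 3.85 and 2.11 CPM in NI1 to NI3. All 6 tumors were above NI2 and NI3, and 5 of 6 were above NI1, M2 being below it. The log2 fold change of tumors over islets was 2.18 ± 0.76 (SE), with an adjusted p of 0.181. Without NI1 it was 3.57 ± 0.76, with an adjusted p of 0.0238 (edgeR). Over the alternatives of the fit without NI1 the adjusted p ran from 1.05e-06 to 0.236. The call was lost when NI2 or NI3 was also left out (log2 fold changes 4.07 and 3.20, adjusted p = 0.118 and 0.236), which leaves 1 islet library whose spread is taken from the tumors. The edgeR call of Apln therefore came from a comparison that rests on NI2 and NI3. With all 9 libraries, DESeq2 called Apln higher (log2 fold change 2.19 ± 0.68, adjusted p = 0.0256), where it called 7.16% of genes. Over the alternatives of the fit with all libraries the adjusted p ran from 0.0194 to 0.588. The receptor Aplnr was at 40.0, 10.6 and 7.87 CPM in M1 to M3, at 33.5, 23.2 and 15.8 CPM in M4 to M6 and at 15.3, 10.6 and 5.72 CPM in the islets. Its log2 fold change was 1.05 ± 0.54 (adjusted p = 0.309) and 1.42 ± 0.65 without NI1 (adjusted p = 0.198).

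Esm1, Dll4 and Notch4 gave 0 calls in the edgeR fits with and without NI1. Esm1 was at 155, 51.5 and 101 CPM in M1 to M3, at 126, 188 and 204 CPM in M4 to M6 and at 215, 182 and 177 CPM in the islets. Dll4, the Notch ligand of tip cells, was the most even gene of the 3, between 40.6 and 65.8 CPM in tumors and between 39.9 and 55.7 CPM in islets, with a log2 fold change of 0.05 ± 0.19 (0.08 ± 0.23 without NI1). Notch4, an endothelial Notch receptor, was at 41.6, 23.5 and 40.3 CPM in M1 to M3, at 46.5, 46.9 and 31.9 CPM in M4 to M6 and at 34.1, 27.1 and 29.7 CPM in the islets, with a log2 fold change of 0.34 ± 0.23 (0.44 ± 0.28 without NI1). The levels of Esm1, Dll4 and Notch4 thus overlapped between tumors and islets.

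Because the core endothelial level differed 2.77-fold between the highest and the lowest tumor, each gene was also expressed relative to it, as log2 of its CPM over the summed CPM of the 10 core genes. This is a description with no test. Relative to the core, 6 of the 29 genes outside the core had all 6 tumors above all 3 islet libraries (Cd34, Nos3, Nrp2, Angpt2, Apln and Notch4). Of all genes tested, 4.7% did. There were 2 genes with all 6 tumors below (Flt1 and Nrp1), against 1.51%. These counts depend on the core. Notch4 separated narrowly, with its lowest tumor at -4.23 and its highest islet library at -4.25. With Pecam1 and Cdh5 as the core, Notch4, Nos3 and Angpt2 no longer had every tumor above every islet library. Apln was at -4.24 ± 1.00 (SD, n = 6) in tumors and -6.89 ± 1.44 in islets (SD, n = 3), where NI1 was at -5.29, a difference of 2.65, or 3.45 against NI2 and NI3 alone. Angpt2 was at -3.89 ± 1.00 in tumors and -4.95 ± 0.14 in islets, a difference of 1.06 (1.02 against NI2 and NI3). Flt1 was at -2.45 ± 0.32 in tumors and -1.63 ± 0.14 in islets, a difference of -0.82 (-0.89 against NI2 and NI3). Nrp1 was at -3.44 ± 0.23 in tumors and -3.07 ± 0.11 in islets, a difference of -0.37 (-0.40 against NI2 and NI3).

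Kdr relative to the core was at -2.33 ± 0.43 in tumors and -1.42 ± 0.19 in islets, a difference of -0.91 (-1.02 against NI2 and NI3), with M6 at -1.60 just above NI1 at -1.63 and the other 5 tumors below every islet library. Pgf was at -5.52 ± 0.54 in tumors and -4.28 ± 0.46 in islets, a difference of -1.24 (-1.50 against NI2 and NI3), again with M6 (-4.66) within the islet range. The low Kdr and Flt1 levels of M2 and M3 stood beside a low core level, whereas in M4 and M5 the core summed to 693 and 878 CPM, at or above the islets.

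**Figure D3:**
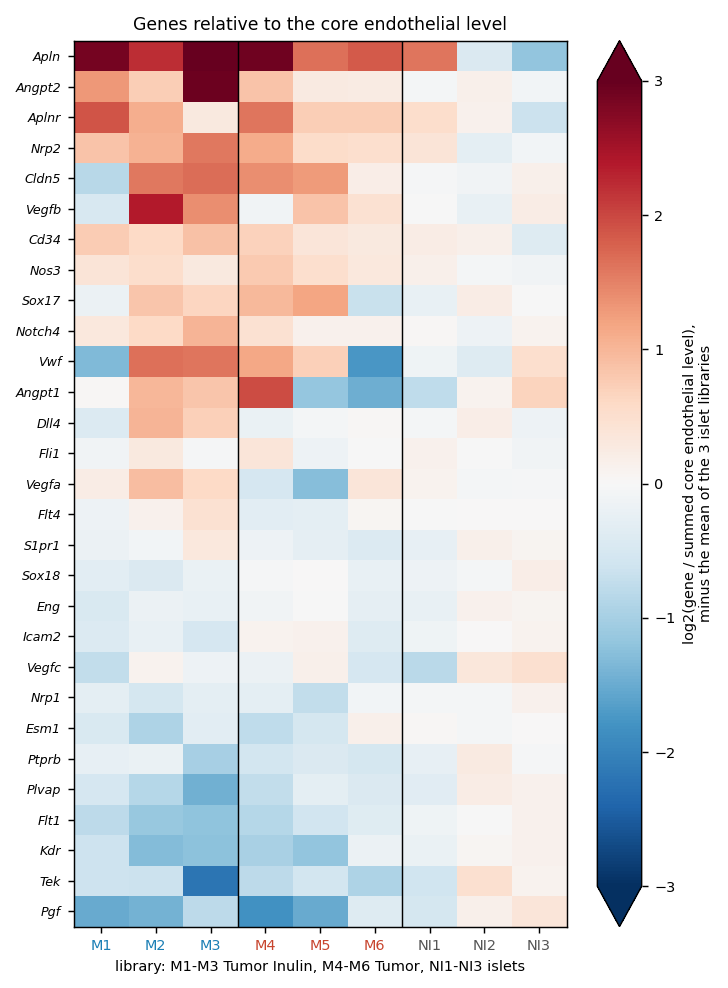
Log2 ratio of each of the 29 genes outside the core (rows, ordered by the difference between tumors and islets) to the summed core endothelial level in each library (columns), minus the mean of the 3 islet libraries. Red marks a higher and blue a lower ratio, the scale ends at 3 on either side, and Apln at the top and Pgf at the bottom have the largest differences, 2.65 and -1.24.

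The next comparison was between Tumor Inulin and Tumor, in a fit of all 3 groups. None of the 39 genes passed the adjusted threshold in edgeR (0 of 39, where 0% of all genes passed), and DESeq2 and limma also called 0 of the 39 (0.492% and 0.00644% of genes). At an unadjusted p under 0.05, 8 of the 39 were lower in Tumor Inulin (Esam, Icam2, Eng, Emcn, Mmrn2, Egfl7, Sox18 and Flt1), where 5.58% of all genes tested were lower at that level, and 0 were higher. The fold change was below 0 for 35 of the 39 genes, with a median log2 fold change of -0.63 against 0.01 over all genes tested. The 39 genes vary together, so that these counts do not add up as separate observations. Some other lists also had fold changes below 0, for 8 of 8 lymphoid (median -1.71), 8 of 8 macrophage (-0.55) and 4 of 4 tested platelet genes (-1.45). The same held for 5 of 5 tested erythrocyte (-0.65), 7 of 7 tested acinar (-9.18) and 39 of 43 further endothelial genes (-0.73). Fold changes were above 0 for 6 of 6 proliferation (median 0.54), 4 of 6 lymphatic (0.46) and 4 of 6 neuroendocrine genes (0.13). The remaining marker lists had genes on both sides of 0, such as pericyte (-0.14), fibroblast (-0.08) and beta cell genes (-0.30). None of these genes passed the adjusted threshold in edgeR, and their part in the values of the 39 was not tested. Egfl7, a secreted factor of endothelial cells, was at 50.4, 29.8 and 34.9 CPM in M1 to M3 and at 71.5, 125 and 63.9 CPM in M4 to M6. Egfl7 and Vegfc (2 of 39) had all 3 Tumor Inulin libraries below all 3 Tumor libraries, against 6.24% of all genes. The log2 fold change of Egfl7 was -1.18 ± 0.35 (SE), with an unadjusted p of 0.00752 and an adjusted p of 0.455 in edgeR.

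The 3 Tumor Inulin libraries were not alike. M1 had the highest level of Pecam1, Cdh5, Cd34, Vegfa and Aplnr of all 6 tumors, whereas M2 was the lowest of the 6 for 26 of the 39 genes and M3 for 6 more. M5 was the highest for 22. The shares of all genes tested with these orders were not computed, and the 39 genes vary together. M2, the only female, had Kdr at 48.2 CPM, against 65.2 CPM in M3 and 167 CPM in M1, both from males. Among the 4 genes with fold changes above 0 in Tumor Inulin were Angpt2 at 0.82 ± 0.51 (SE), Apln at 0.57 ± 0.81 and Vegfa at 0.31 ± 0.30, with adjusted p values of 0.601, 0.832 and 0.739. Vegfb was the fourth, at 0.07 ± 0.44. Sex cannot be told apart from other differences between M2 and the remaining tumors.

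**Figure D4:**
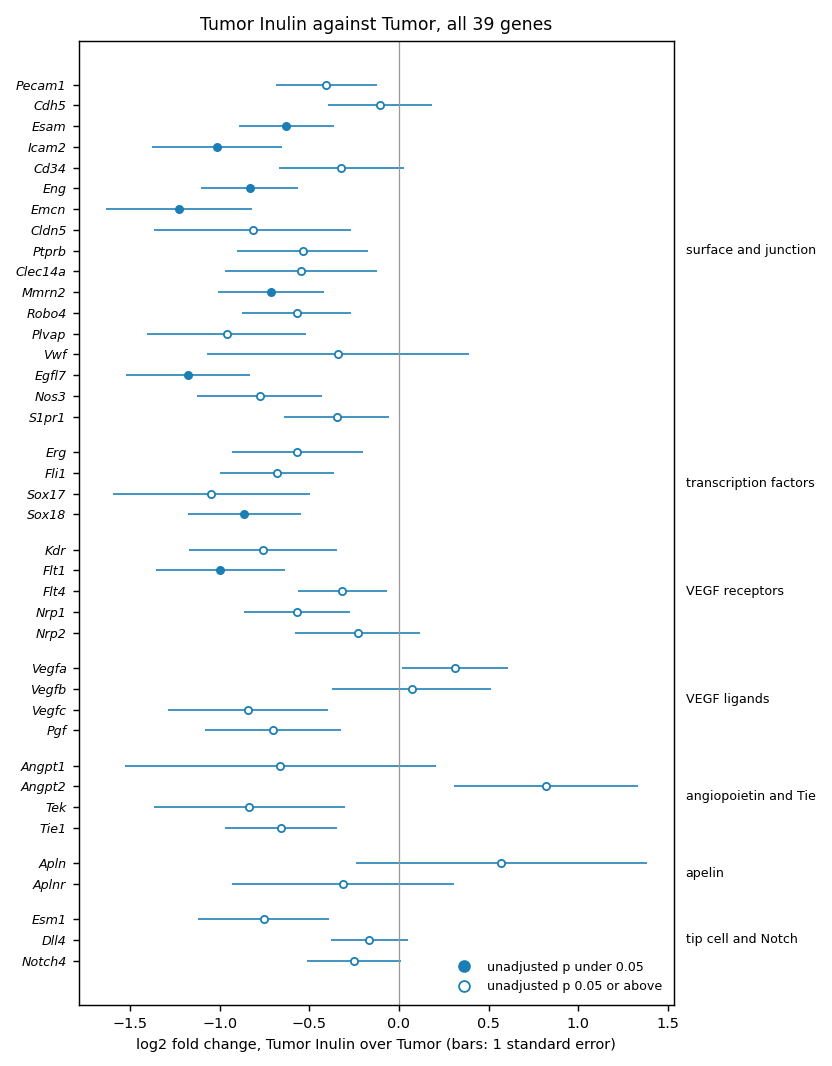
Log2 fold change of Tumor Inulin over Tumor (x axis) for all 39 genes by role (y axis), with bars of 1 standard error. Of the points, 35 lie left of 0, the 8 filled ones have an unadjusted p under 0.05, and 0 passed the adjusted threshold.

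With each kind of tumor set against the islets separately, the fit of all 3 groups called 0 of the 39 genes in either kind, with a lowest adjusted p of 0.0969 (Pgf) for Tumor Inulin and 0.332 for Tumor (edgeR). Over all genes it called 0.476% and 0%. At an unadjusted p under 0.05, 2 of the 39 were higher and 9 lower for Tumor Inulin, and 2 were higher and 1 lower for Tumor. Of all 15532 genes tested, 1755 were higher and 1525 lower at that level for Tumor Inulin, and 1285 and 961 for Tumor. Without NI1, Tumor Inulin against islets called Apln higher (log2 fold change 3.82, adjusted p = 0.0276) and Pgf lower (-1.83, adjusted p = 0.0346), where 8% of all genes were called, while Tumor against islets called 0 of the 39, where 4.06% of all genes were called, and gave Apln a log2 fold change of 3.25 and an adjusted p of 0.0568. Both comparisons use the same islet libraries. The difference between the kinds of tumor itself was not significant for Apln (adjusted p = 0.832) or Pgf (adjusted p = 0.545).

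Other genes of vessel growth were taken from a list of 50, of which 47 were tested. With all libraries 0 of the 47 were called, and without NI1 3 were higher and 0 lower, where 5.34% of all genes were higher. The share of the 47 was therefore near that of all genes. Vegfd, a further ligand of Flt4, was between 1.18 and 11.8 CPM in the tumors, at 0.720 CPM in NI1 and at 0.171 and 0.471 CPM in NI2 and NI3 (log2 fold change without NI1 4.31 ± 1.03, adjusted p = 0.0364). Plxnd1, an endothelial semaphorin receptor, was between 55.7 and 104 CPM in tumors, at 74.0 CPM in NI1 and at 42.5 and 34.9 CPM in NI2 and NI3 (1.13 ± 0.27, adjusted p = 0.0368). Unc5b, a netrin receptor of the vessel wall, was between 36.7 and 50.5 CPM in tumors, at 33.6 CPM in NI1 and at 22.8 and 16.9 CPM in NI2 and NI3 (1.10 ± 0.22, adjusted p = 0.0216). Of 45 further endothelial genes, 43 were tested and 1 was called without NI1, Cd93, an adhesion receptor, at 57.4 to 124 CPM in tumors and 67.9, 37.5 and 29.9 CPM in the islets (1.45 ± 0.33, adjusted p = 0.0304), against the same 5.34%. With all libraries 0 of the 43 were called. For Plxnd1 and Cd93, NI1 lay inside the tumor range.

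Markers of other cell types also differed in level between the libraries. The 12 pericyte and smooth muscle genes, led by Rgs5, summed to between 633 and 1670 CPM in the tumors and between 543 and 675 CPM in the islets, and 4 of the 12 were called higher without NI1 (Pdgfrb, Kcnj8, Abcc9 and Mcam), against 5.34% of all genes, and 0 with it. The 8 macrophage genes summed to between 292 and 820 CPM in tumors and between 123 and 286 CPM in islets. The 8 fibroblast genes summed to between 106 and 2094 CPM against between 123 and 190 CPM, and the 8 lymphoid genes to between 18.9 and 116 CPM against between 162 and 202 CPM. Without NI1, 3 macrophage genes and 1 fibroblast gene were called higher, against the same 5.34%. In that fit 3 lymphoid genes were called lower, where 492 of 15532 genes were lower. With all libraries 2 lymphoid genes were called lower, where 40 of 15532 genes were lower, and 0 macrophage or fibroblast genes were called. Pecam1, Cd34, Icam2, Fli1 and Nrp1 are also expressed by blood or stromal cells. The part of these cells in the values of the 39 genes was not tested. Of the pericyte, macrophage and fibroblast genes 0 were at 0 counts in any library, and of the lymphoid genes 1, Cd3d in M1.

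The 9 beta cell genes summed to between 18407 and 116760 CPM in the tumors, to 121927 CPM in NI1 and to 327608 and 365133 CPM in NI2 and NI3. Immediate early and heat shock genes, which rise when tissue is dissociated, summed to between 84.6 and 151 CPM in the tumors and to 551, 2579 and 1367 CPM in NI1 to NI3. The 8 acinar genes summed to between 0.766 and 209 CPM in the tumors and to 316, 389 and 5877 CPM in NI1 to NI3, and Amy2b was at 0 in M1 to M4. These levels differed between tumors and islets in the same libraries as the endothelial values, and how the islets were isolated cannot be told apart from the tissue.

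**Figure D5:**
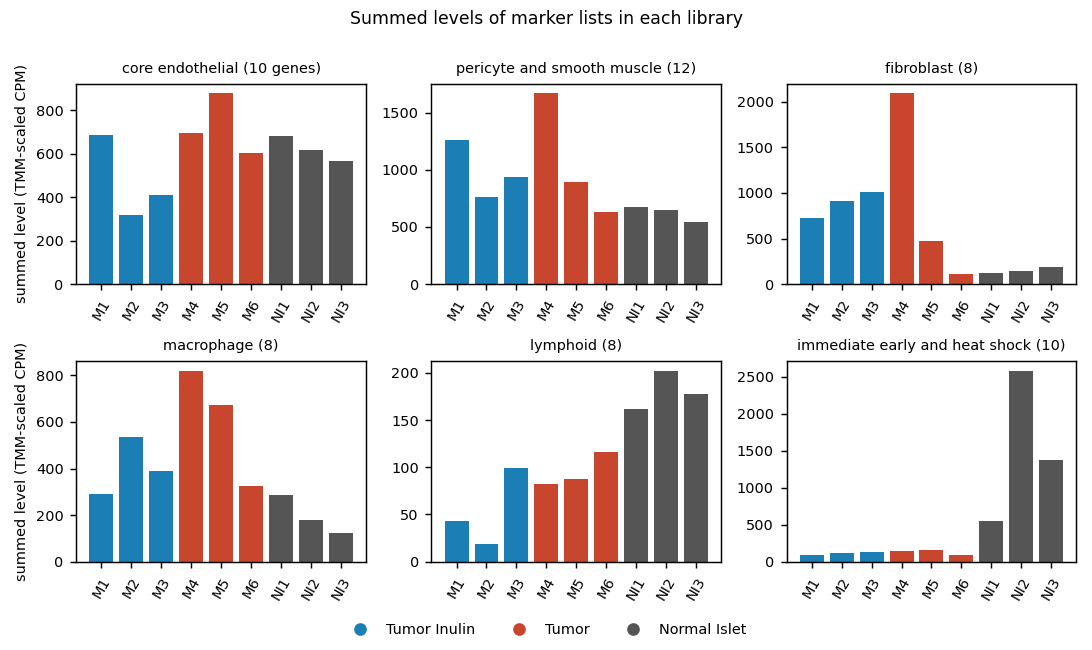
Summed TMM-scaled CPM (y axis, from 0) of 6 marker lists in each library (x axis), colored by group. The core endothelial sum is lowest in M2 and M3, the lymphoid and immediate early sums are higher in all 3 islet libraries than in every tumor, and the fibroblast sum of M6 (106 CPM) lies near those of the islets.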

How the data were processed

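Whole-tissue RNA from 6 INS-p25OE tumors and 3 islet samples was sequenced as single-end reads from a kit that does not keep strand. Per the submitters' processing notes, the authors trimmed with Trimmomatic 0.38, quantified with Salmon 1.4.0 on mm10 and used DESeq2. The deposited table holds unscaled whole-number counts per gene, although it is named TPM, and the step from transcripts to genes is not given in the sources used here.

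Symbols and coordinates came from GENCODE M21. Genes reaching 1 CPM in 3 or more of 9 libraries entered the fit. They were TMM-scaled and compared by the two-sided quasi-likelihood test of edgeR 4.0.16 (R 4.3.3), with Benjamini-Hochberg adjustment over 15532 genes and a threshold of 0.05. The fit without NI1 kept the same genes. The SE is the log2 fold change divided by the square root of F. DESeq2 1.42.0 and limma 3.58.1 were alternatives. The fits were tested on simulated data.

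The 39 genes and all lists were chosen with earlier results of these data known. Named genes were all 39 by role, and up to 8 called genes of each further list. P-values measure only the spread between these samples, which the labels do not tie to separate animals. Exons of 8 of the 39 genes overlap another gene (Eng with Fpgs and Egfl7 with Agpat2 on the opposite strand among tested genes), and without strand such reads cannot be told apart.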

Additional observations from a re-analysis of the deposited data

Results flagged for a closer look

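In each of the 39 genes the highest and the lowest of the 6 tumors were compared with the others. One value stood far from the rest, Angpt1 in M4 at 4.16 CPM, while the other 5 tumors were between 0.334 and 1.13 CPM. Its gap to the nearest tumor was 0.793 of the whole range. Such a test picks out about 1 in 20 groups by chance, and 39 were examined. M4 also had 32.1% of its counts in mitochondrial genes and the highest fibroblast sum (2094 CPM), and their part in the Angpt1 value was not tested.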

How the results depend on the processing

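With all libraries, the genes called in tumors against islets numbered 40 in edgeR, 1494 in DESeq2, 79 with at least 10 counts in total, 104 with no filter, 1451 without NI1 and M6 (an alternative chosen after the data were seen), and between 7 and 1321 when each library was left out, with the highest count without NI1 and 217 without M6. Of the 39 genes, 1 was called higher (Apln) and 1 lower (Pgf) in DESeq2 and without NI1 and M6, and leaving out each library gave between 0 and 1 in each direction. Without NI1, DESeq2 called 3365 genes, 2 of the 39 higher (Apln and Nrp2) and 1 lower (Pgf), and limma called 1 lower (Pgf). Leaving out a further library gave between 84 and 1451 genes (84 without NI3 and 197 without NI2), between 0 and 2 of the 39 higher and between 0 and 1 lower. Between Tumor Inulin and Tumor, DESeq2 called 100 genes, limma 1, no filter 1, and leaving out each library between 0 and 1. Of the 1833 alternative fold changes of single genes, 1768 kept direction and side of the threshold.

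Some fold changes changed sign. In tumors against islets, limma gave Esam -0.041 and Egfl7 -0.012, and without NI1 and M6 Fli1 was 0.13, Pecam1 0.034 and Vegfa 0.013. Without NI1, limma gave Pecam1 -0.024 and Angpt1 -0.22. In Tumor Inulin against Tumor, limma gave Angpt1 0.13, and without NI1 and M6 Vegfb was -0.059. Leaving out each library gave, in tumors against islets, Angpt1 -0.29 to 0.73, Dll4 -0.079 to 0.15, Egfl7 -0.21 to 0.40, Erg -0.0072 to 0.33, Esam -0.12 to 0.15, Fli1 -0.16 to 0.12, Pecam1 -0.14 to 0.061, Tie1 -0.28 to 0.010 and Vegfa -0.14 to 0.093. Without NI1 it gave Angpt1 -0.54 to 0.42, Dll4 -0.14 to 0.35, Esam -0.041 to 0.22, Fli1 -0.011 to 0.24, Flt4 -0.12 to 0.056, Mmrn2 -0.27 to 0.014, Pecam1 -0.042 to 0.16 and Vegfa -0.0027 to 0.21. In Tumor Inulin against Tumor it gave Angpt1 -1.16 to 1.17, Apln -0.055 to 1.04, Aplnr -1.39 to 0.066, Cdh5 -0.38 to 0.13, Nrp2 -0.43 to 0.015, Vegfb -0.38 to 0.51 and Vwf -0.84 to 0.077. The cause of these changes was not tested. With Pecam1 and Cdh5 as the core, each ratio's difference between tumors and islets shifts by the same -0.26, by construction, and 4 changed sign (Fli1 from 0.058 to -0.20, Vegfa from 0.051 to -0.21, Dll4 from 0.18 to -0.076 and Angpt1 from 0.19 to -0.069).

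M1 to M3 and NI1 to NI3 share only numbers, and their strain labels differ. Deviations from the group means correlated at -0.0516, 0.03 and -0.159 for equal numbers. Over these 6 libraries, Tumor Inulin against islets gave 35 genes with the replicate block and 130 without it, against 74 in the fit of all 3 groups, and 0 of the 39 in each. Counts of 3 (0.119 CPM or less) set the detection limit, which only the lowest levels of Angpt1 approach.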
